A study of Mus musculus with 6 samples.

Results

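The clustered histone genes of the mouse are the replication-dependent genes that encode the linker histone H1 and the core histones H2A, H2B, H3 and H4. Their members were taken from the deposited table by symbol, as every row that starts with Hist1h, Hist2h, Hist3h or Hist4h. The rule found 62 genes among 29955 rows, of which 6 belonged to H1, 15 to H2A, 18 to H2B, 11 to H3 and 12 to H4. A total of 50 lay in the Hist1 cluster on chromosome 13, 8 in Hist2 on chromosome 3, 3 in Hist3 on chromosome 11 and 1 in Hist4 on chromosome 6. RNA was sequenced from 3 libraries of Rnf40+/+ and 3 libraries of Rnf40-/- mouse embryo fibroblasts (MEFs) at passage 3, and the comparison asked how the loss of Rnf40 altered the transcript levels of each histone class. The knockout MEFs came from Rnf40 loxP/loxP embryos that carried the Rosa26-CreERT2 transgene, a tamoxifen-inducible Cre that is expressed in nearly all cell types. They were treated with 250 nM 4-hydroxytamoxifen (4-OHT) for 5 days to delete exons 3 and 4 and were then kept for 3 days without it. Neither the labels nor the methods state whether the Rnf40+/+ cells carried the transgene or received 4-OHT, so the deletion and the treatment cannot be told apart. They also do not state whether the 3 libraries of a genotype came from separate embryos, and p values then measure only the spread between these libraries, which may be technical.

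Nucleosomes are built from pairs of the core histones, with H1 bound to the linker DNA, and a cell has to double its histones each time it copies its genome. The clustered genes supply this need. They are transcribed mainly in S phase under the coactivator NPAT, and most of them carry no intron. Their mRNAs end at a conserved stem-loop in place of a poly(A) tail. The stem-loop-binding protein SLBP binds this structure, the U7 snRNP directs the cut just behind it, and the mRNAs decay quickly once DNA synthesis ends. Several clustered genes can also give longer, polyadenylated transcripts, as cells that stop dividing are known to make. RNF40 and its partner RNF20 form the ligase that attaches a single ubiquitin to histone H2B, and the ligase has been linked to the 3' end processing of histone mRNAs. The kit made strand-specific libraries from total RNA, and a step of poly(A) selection is not given in the sources used here.

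The stem-loop is the sequence by which these transcripts are processed, and it was read from the mm9 genome behind the stop codon of each protein-coding gene. The pseudogene Hist3h2bb-ps has no annotated stop codon and was searched from its 5' end. A perfect stem of 6 base pairs with a loop of 4 bases was found in 60 of 62 genes, this pseudogene among them. In the protein-coding genes it lay from 21 to 58 bases after the stop codon (median 30). The 8 different cores of 16 bases fell by class. One core was shared by 37 genes of H1, H2A, H2B and H3, while the 12 H4 genes used 4 cores that no other class had. The stem-loops of several genes named in the results are shown 5' to 3' on the strand of the gene, with the stem and loop in capitals and 5 bases on each side in lower case.
Hist1h2bc (H2B, chr13:23776511-23776536, plus strand): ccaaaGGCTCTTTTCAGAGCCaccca
Hist1h2ac (H2A, chr13:23775341-23775366, minus strand): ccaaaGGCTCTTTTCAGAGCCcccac
Hist2h2ac (H2A, chr3:96024336-96024361, minus strand): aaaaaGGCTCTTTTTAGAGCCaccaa
Hist1h1c (H1, chr13:23831376-23831401, plus strand): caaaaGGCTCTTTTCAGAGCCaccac
Hist1h1e (H1, chr13:23713646-23713671, minus strand): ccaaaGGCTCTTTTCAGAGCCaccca
Hist1h3f (H3, chr13:23636796-23636821, plus strand): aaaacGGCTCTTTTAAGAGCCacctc
Hist1h4h (H4, chr13:23623322-23623347, plus strand): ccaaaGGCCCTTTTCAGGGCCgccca
Hist1h4i (H4, chr13:22132830-22132855, minus strand): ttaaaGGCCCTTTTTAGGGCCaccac
Hist1h2an (H2A, chr13:21878642-21878667, minus strand): acaaaGGCTCTTTTCAGAGCTaacac
Hist1h2bc and Hist1h2ac carried the shared core, as did Hist1h1c and Hist1h1e. It was also found in Hist1h2br and Hist1h2be, which are not printed. The stem-loop of Hist1h2be matched that of Hist1h2bc in the core and in the 5 bases on each side. Hist1h2an is shown because it failed the search by a single base. It differed from the shared core by C16T, counted from 1 at the first capital. Hist2h2be, which encodes an H2B on chromosome 3, was the other gene without a match. The nearest 16 bases within 150 bases of its stop codon differed from the shared core at 7 positions.

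Many H2A and H2B genes lie head to head and share the DNA between their 5' ends. A total of 11 such pairs had annotated 5' ends at most 500 bases apart, with gaps from 167 to 305 bases. The gap is shown for the pair with the most reads and for the only tested pair whose fold changes had opposite signs, on the plus strand of mm9. Capitals mark matches on either strand to the TATA motif (spelled TATAAA), to the box that transcription factor NF-Y reads (spelled CCAAT) and to the octamer that OCT1 reads (spelled ATTTGCAT). A TATA match on the minus strand appears as TTTATA, and a minus-strand match of the box appears as ATTGG.
Hist1h2ac-Hist1h2bc (chr13:23775818-23776067): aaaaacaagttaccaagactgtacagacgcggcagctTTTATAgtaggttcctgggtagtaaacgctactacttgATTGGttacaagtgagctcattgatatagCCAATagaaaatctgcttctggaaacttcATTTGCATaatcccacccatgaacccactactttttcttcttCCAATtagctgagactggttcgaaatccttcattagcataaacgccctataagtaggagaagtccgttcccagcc
Hist2h2ac-Hist2h2be (chr3:96024804-96025043): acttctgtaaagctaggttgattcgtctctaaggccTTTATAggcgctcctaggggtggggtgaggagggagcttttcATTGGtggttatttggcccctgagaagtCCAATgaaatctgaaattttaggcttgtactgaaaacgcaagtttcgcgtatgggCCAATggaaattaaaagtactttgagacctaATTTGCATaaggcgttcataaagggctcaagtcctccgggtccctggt
Both gaps held 1 match of the TATA motif, 3 of the CCAAT box and 1 of the octamer, and none of these overlapped. In the 250 bases before the annotated 5' end the octamer was present in 9 of 18 H2B genes, 7 of 15 H2A genes and 1.63% of 22368 protein-coding genes. It had no match in these windows of H1, H3 or H4 genes. The windows of head-to-head genes overlap, so the same match can count for both genes of a pair and for both classes. The octamer in each of the gaps printed above was counted in this way. The CCAAT box was present in 53 of the 62 histone genes, against 35% of protein-coding genes, but in only 4 of 12 H4 genes. The TATA motif was present in 31 of 62 histone genes and in 12.3% of protein-coding genes. These matches describe the letters of the windows and do not show that a factor is bound.

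The 6 libraries held between 17053436 and 26344170 reads on genes, and the deepest was replicate 3 of Rnf40+/+. This library stood apart from its group, with a chi-square per gene of 30.9 and 27.8 against the other Rnf40+/+ libraries, which differed by 8.53 from each other, while Rnf40-/- libraries differed by 5.65 to 14.5 and libraries of different genotypes by 81.4 to 128. A normalized count, the unit of the deposited table, is the number of reads on a gene over the size factor of its library. Rnf40 had normalized counts of 1278, 1195 and 1096 in Rnf40+/+ and of 439, 519 and 487 in Rnf40-/- libraries, a fall of the mean from 1189.5 ± 91.2 to 482 ± 39.9 (SD, n = 3). All 12 fibroblast markers were detected, but 11 of them were lower in Rnf40-/- MEFs at an adjusted p under 0.05, by the test described below. Of all genes tested, 24.1% were lower and 23.3% higher by that test. The summed level of the fibroblast markers was 716615 to 795519 in Rnf40+/+ against 436213 to 437865 in Rnf40-/- libraries. The summed level of 7 markers of macrophages and other blood cells was 5458 to 9358 in Rnf40+/+ and 3414 to 3761 in Rnf40-/- libraries, with 2 of 7 lower and 1 higher. That of 4 endothelial markers was 46.9 to 143 and 173 to 265, with 3 of 4 higher. Of 3 skeletal muscle markers Myod1 was at 0 in every library and Myog had at most 7.14 normalized counts, while Des had 431, 126 and 114 in Rnf40+/+ against 35.7, 27.1 and 42.5 in Rnf40-/- libraries and was lower. The 5 epithelial markers summed to 434 to 779 in Rnf40+/+ and 559 to 792 in Rnf40-/- libraries. The 3 neural markers summed to 1302 to 2710 and 1321 to 1522. In each of these types 2 markers were tested, and none was called. The part of these other cells in the results on histone genes was not tested.

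Of the 62 clustered histone genes, 54 had enough reads for a test, and 13 of these 54 passed it. The test used limma on the log2 scale after 1 was added to each normalized count, and p was adjusted by Benjamini-Hochberg over 16378 genes. In Rnf40-/- MEFs 8 histone genes were lower and 5 were higher at an adjusted p under 0.05. That is 14.8% and 9.26% of the 54, whereas 24.1% of all genes tested were lower, 23.3% were higher and 47.4% passed in either direction. The values of the genotypes did not overlap in 17 of the 54, against 56.5% of all genes tested, so lack of overlap was common in these data. The lower genes were Hist1h2bc, Hist1h2bh, Hist1h2bk, Hist1h2bp and Hist1h2br of H2B, Hist1h2ac of H2A, Hist1h1c of H1 and Hist1h4i of H4. The higher genes were Hist1h2be and Hist2h2be of H2B, Hist1h1e of H1, Hist1h3f of H3 and Hist1h4h of H4. The median tested histone gene had between 32 and 59 reads per library. The median standard error of the histone genes was 0.25 on the log2 scale, against 0.12 for all genes tested and 0.31 for all genes with a mean under 100 normalized counts. Among the genes under that level, as 42 of the 54 were, 13.3% of all genes tested were lower and 17.2% higher, against 4 and 1 of these 42. Among genes above that level 28.7% and 25.8% were lower and higher, against 4 and 4 of 12.

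**Figure D1:**
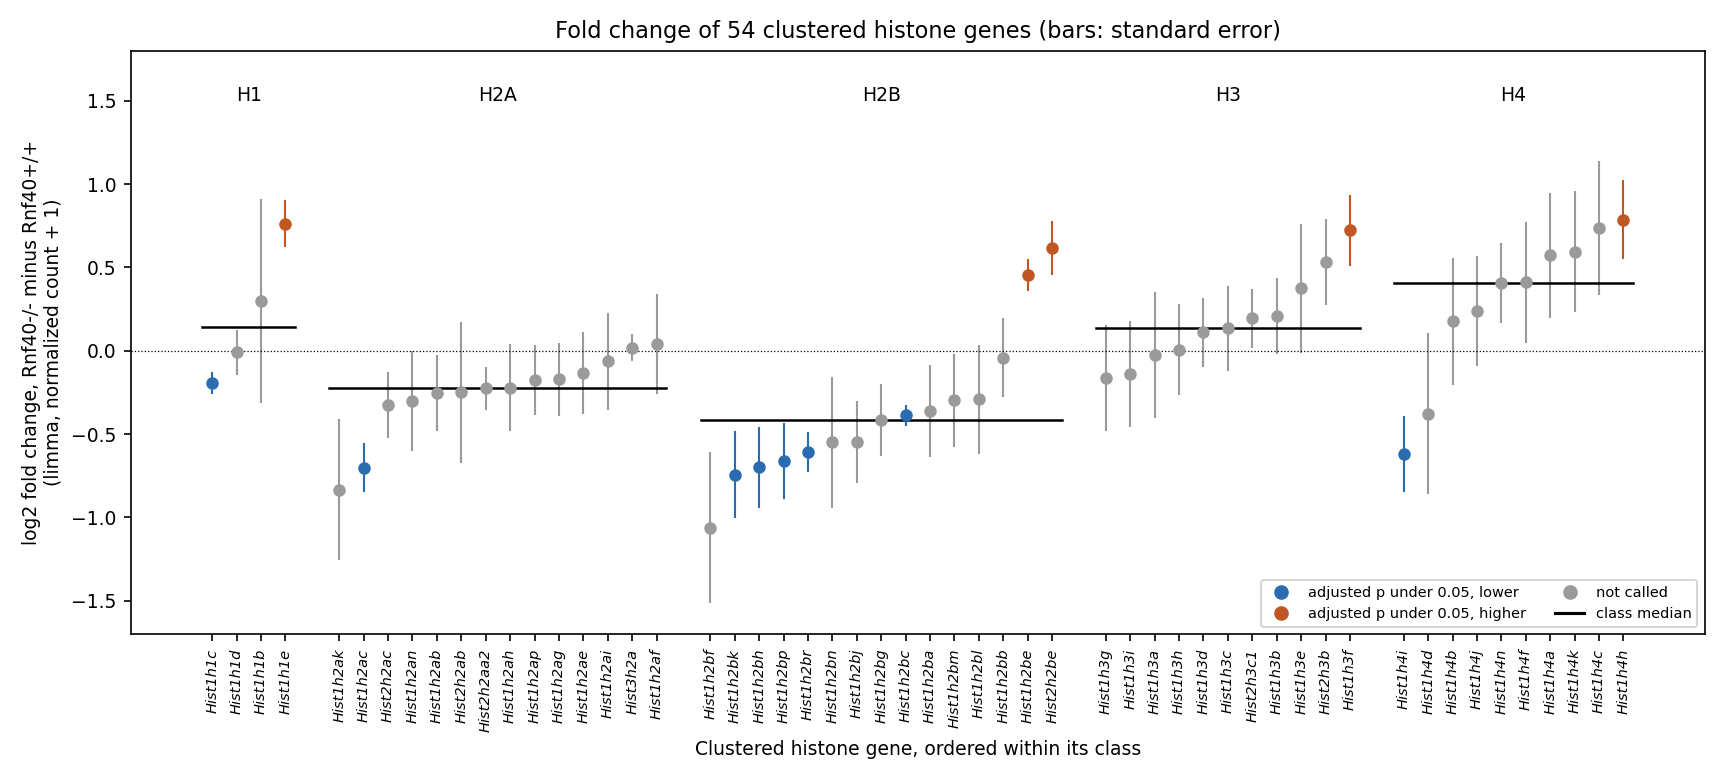
The log2 fold change of each of the 54 tested genes (Rnf40-/- minus Rnf40+/+, with the standard error of limma) is plotted by class, with the class median as a black line. Blue genes were lower and orange genes higher at an adjusted p under 0.05. The median is lowest for H2B (-0.42) and highest for H4 (0.41), and the called genes of H2B lie on both sides of 0.

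Class by class, the fold changes of H2A and H2B lay mostly below 0 and those of H3 and H4 mostly above it. A total of 13 of 15 H2B and 12 of 14 H2A genes had a log2 fold change below 0, whereas 8 of 11 H3 and 8 of 10 H4 genes had one above 0. Over all genes tested, 8242 of 16378 were below 0. The median log2 fold change was -0.42 for H2B, -0.22 for H2A, 0.14 for the 4 H1 genes, 0.13 for H3 and 0.41 for H4, beside -0.0035 for all genes. The spread between libraries was wide next to these medians. The median H2B difference from the Rnf40+/+ mean was -0.0015, -0.03 and 0.08 in Rnf40+/+ libraries, against -0.17, -0.65 and -0.47 in Rnf40-/- libraries. The groups did not overlap. For H3 the values were -0.22, 0.04 and 0.08 against 0.13, 0.19 and 0.31, again without overlap. For H4 they were -0.03, -0.24 and 0.14 against 0.62, 0.12 and 0.10. Replicate 3 of Rnf40+/+ thus exceeded replicates 2 and 3 of Rnf40-/-, and the H4 median stood out in replicate 1 of Rnf40-/- alone. The H2A medians were -0.05, -0.13 and 0.14 against -0.28, -0.34 and 0.06, and they overlapped too. With single libraries left out, the H2A median went to -0.11 without replicate 2 of Rnf40-/- and to -0.14 without replicate 3 of Rnf40+/+, the H3 median to 0.061 without replicate 1 of Rnf40+/+ and the H4 median to 0.23 without replicate 1 of Rnf40-/-. The H1 median ran from 0.017 without replicate 1 to 0.33 without replicate 3 of Rnf40+/+. These medians are a description, and the difference between classes was not tested.

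**Figure D2:**
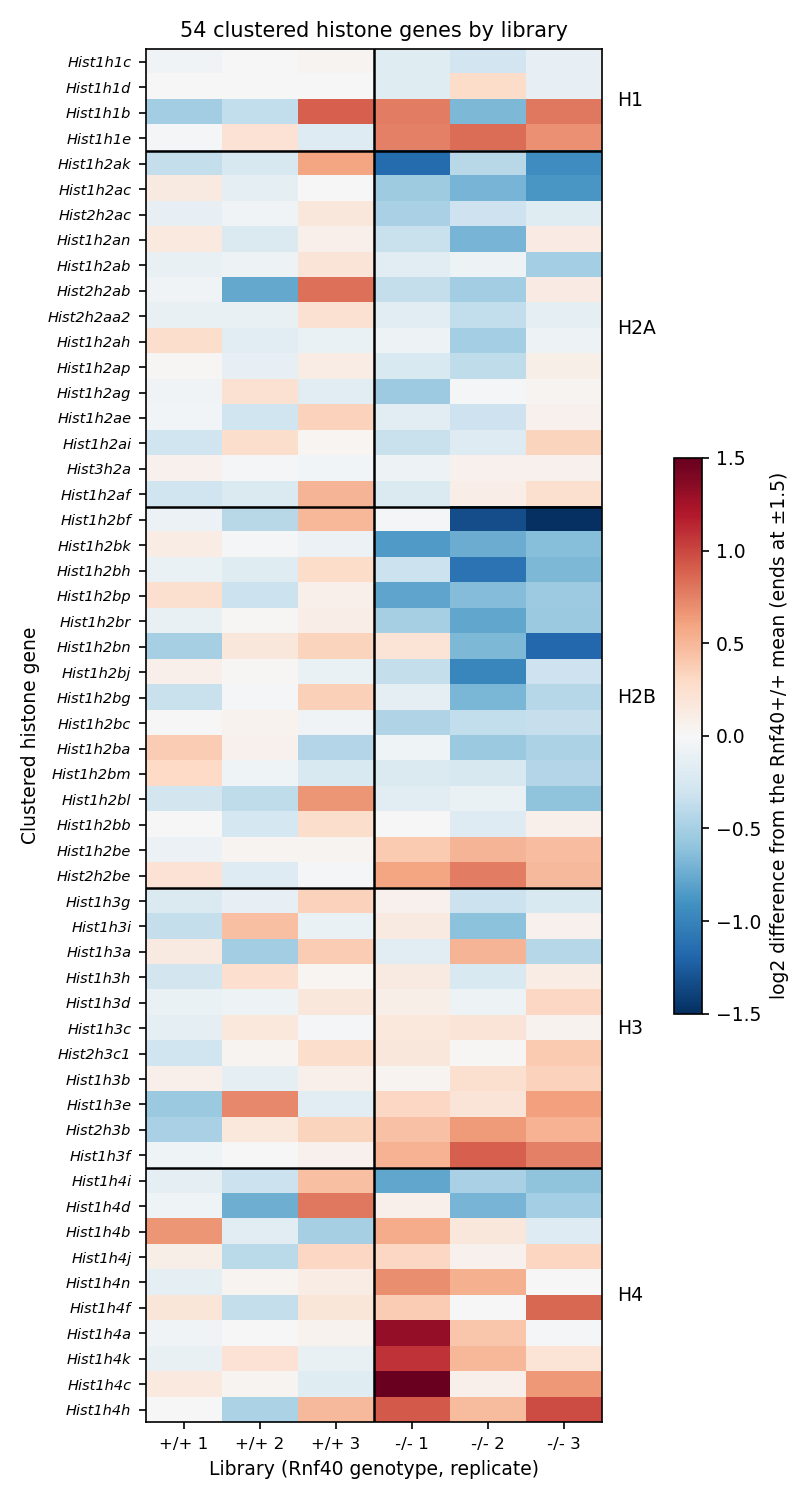
Each row is a tested histone gene and each column a library, and the colour is the difference of log2(normalized count + 1) from the Rnf40+/+ mean of that gene. The H2B rows are mostly blue in all 3 Rnf40-/- columns except for Hist1h2be and Hist2h2be, while the H4 rows are reddest in the first Rnf40-/- library.

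H2B, the histone that RNF40 modifies, had 5 of 15 genes lower and 2 higher, against 24.1% and 23.3% of all genes tested, so the share called in either direction was near the 47.4% of all genes. Hist1h2bc (ENSMUSG00000018102, chr13:23776068-23784357) was the most abundant clustered histone gene by the reads assigned to it. Of its 50-base stretches 52.7% were unique in the annotated transcripts, and the rest were also found among 14 other genes. The Rnf40+/+ mean of Hist1h2bc was 4439 normalized counts per kb of exon in the GENCODE vM1 annotation, against 1571 for Hist1h1c, the second in that order. It had normalized counts of 3264, 3389.7 and 3149 in Rnf40+/+ libraries and 2395, 2526 and 2570.1 in Rnf40-/- libraries. Every Rnf40-/- value lay under every Rnf40+/+ value, and the log2 fold change was -0.39 (standard error 0.06, limma adjusted p = 0.00033). Hist1h2br (chr13:21925612-21929399) had normalized counts of 290.2, 318 and 338 against 223, 184 and 214. Its log2 fold change was -0.61 (standard error 0.12, limma adjusted p = 0.00127). Only 2.12% of its 50-base stretches were unique in the annotated transcripts, so its reads could equally come from a near-identical copy.

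The remaining H2B genes that fell were low in reads. Hist1h2bk, the called H2B gene with the largest fall, had normalized counts of 40.6, 36.7 and 35.1 in Rnf40+/+ and 20.4, 21.9 and 23.6 in Rnf40-/- libraries. The groups did not overlap, and the log2 fold change was -0.74 (standard error 0.26, limma adjusted p = 0.0333). Hist1h2bh and Hist1h2bp, named here after their values were seen to complete the 5 lower genes, fell by 0.70 and 0.66 on the log2 scale (limma adjusted p = 0.0336 and 0.0309). Hist1h2bf had the lowest estimate of all, a log2 fold change of -1.06, but its groups overlapped and its adjusted p with limma was 0.0721. It was the only histone gene to meet the thresholds of the study for lower genes (a mean above 15, an unadjusted p under 0.05 and more than 1 log2 unit of change), here applied to the p and fold change of limma in place of those of DESeq, which 5.7% of all genes tested met. No histone gene met these criteria for higher genes, against 4.25% of all genes tested, although 5 were higher at an unadjusted p under 0.05 with limma, edgeR and DESeq2 alike.

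Against this direction, 2 H2B genes were higher in Rnf40-/- MEFs. Hist1h2be (ENSMUSG00000047246, chr13:23675611-23712993) had normalized counts of 284, 312 and 311 in Rnf40+/+ and 396, 432 and 418 in Rnf40-/- libraries. The groups were well apart, with a log2 fold change of 0.46 (standard error 0.10, limma adjusted p = 0.00201). Its stem-loop was the same as that of Hist1h2bc, which fell. Hist2h2be (ENSMUSG00000068854, chr3:96025044-96027661), the H2B gene without a stem-loop match, had normalized counts of 117, 87.7 and 99.8 against 153, 172 and 142. Its groups did not overlap either, and the log2 fold change was 0.62 (standard error 0.16, limma adjusted p = 0.00733). All of its 50-base stretches were unique among the annotated protein-coding and clustered histone transcripts. Only exact matches were counted, and the rest of the genome was not searched. Relative to Hist1h2bc in the same library, Hist1h2be stood at 0.0871, 0.0921 and 0.0989 in Rnf40+/+ and at 0.165, 0.171 and 0.163 in Rnf40-/- libraries, and Hist2h2be at 0.0359, 0.0259 and 0.0317 against 0.0639, 0.0682 and 0.0551. Both ratios were higher in every Rnf40-/- library, whatever the scaling of the libraries. These ratios were chosen after the values were seen. An exact two-sided permutation test gave p = 0.1 for each, the smallest that 3 libraries against 3 allow (0.133 after Benjamini-Hochberg adjustment over the 4 ratios of genes computed here), so neither passed. The exons of Hist1h2be overlap 163 bases of Gm11398 on the same strand, whose reads cannot be told apart from its own there.

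A single H2A gene was called, out of 14 tested. Hist1h2ac (ENSMUSG00000069270, chr13:23773336-23775817) had normalized counts of 199, 166 and 182 in Rnf40+/+ and 125, 112 and 99.1 in Rnf40-/- libraries. The groups did not overlap, and the log2 fold change was -0.70 (standard error 0.15, limma adjusted p = 0.00202). Its exon shares 108 bases with an annotated 5S rRNA on the same strand, whose reads cannot be told apart from its own there. No H2A gene was higher at an adjusted or unadjusted p under 0.05 with limma, edgeR or DESeq2. The most abundant H2A gene by reads, Hist3h2a, had normalized counts of 663, 618 and 615 against 599.6, 659.6 and 661. The groups overlapped, and the 95% interval of its log2 fold change ran from -0.16 to 0.20. This gene shares 708 bases of exon with Trim17 on the same strand. Hist2h2aa2, with normalized counts of 256, 256 and 325 against 249, 214 and 250.2, did not overlap between genotypes but had an adjusted p of 0.175 with limma (log2 fold change -0.22, standard error 0.13). None of its 50-base stretches was unique in the annotated transcripts.

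The head-to-head pairs of H2A and H2B genes mostly pointed the same way. Of the 11 pairs, 9 had both genes tested, and in 8 of these both fold changes were below 0. With 12 of 14 H2A and 13 of 15 H2B genes below 0 in all, most pairs had to share a sign. Reads shared between copies set a limit here too. The unique share of 50-base stretches in these genes ran from 0% in Hist1h2ap and 2.12% in its partner Hist1h2br to 100% in Hist2h2be. The part of shared reads in the common direction was not tested. In the pair of Hist1h2ac and Hist1h2bc, whose gap of 250 bases is printed above, both genes were called lower. Hist1h2bc held 16.4, 20.4 and 17.3 times the normalized count of Hist1h2ac in Rnf40+/+ libraries and 19.1, 22.6 and 25.9 times in Rnf40-/- libraries. These ranges overlapped (exact permutation p = 0.2). In a further 3 pairs the H2B gene was called lower (Hist1h2bk, Hist1h2bp and Hist1h2br), while the H2A gene was not.

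The exception was the pair of Hist2h2ac and Hist2h2be, across a gap of 240 bases that held the same motifs in the same numbers. Hist2h2ac, whose genomic sequence holds a stem-loop with the rarer core shown above, had normalized counts of 63.3, 66.3 and 77.5 in Rnf40+/+ and 48.9, 55.3 and 60.4 in Rnf40-/- libraries. Its groups did not overlap, but its log2 fold change of -0.32 (standard error 0.20) had an adjusted p of 0.201 with limma. Hist2h2be held 1.85, 1.32 and 1.29 times the normalized count of Hist2h2ac in Rnf40+/+ libraries and 3.13, 3.11 and 2.34 times in Rnf40-/- libraries. The ratio, chosen after its values were seen, was thus higher in each Rnf40-/- library than in any Rnf40+/+ library (exact permutation p = 0.1, adjusted 0.133).

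**Figure D3:**
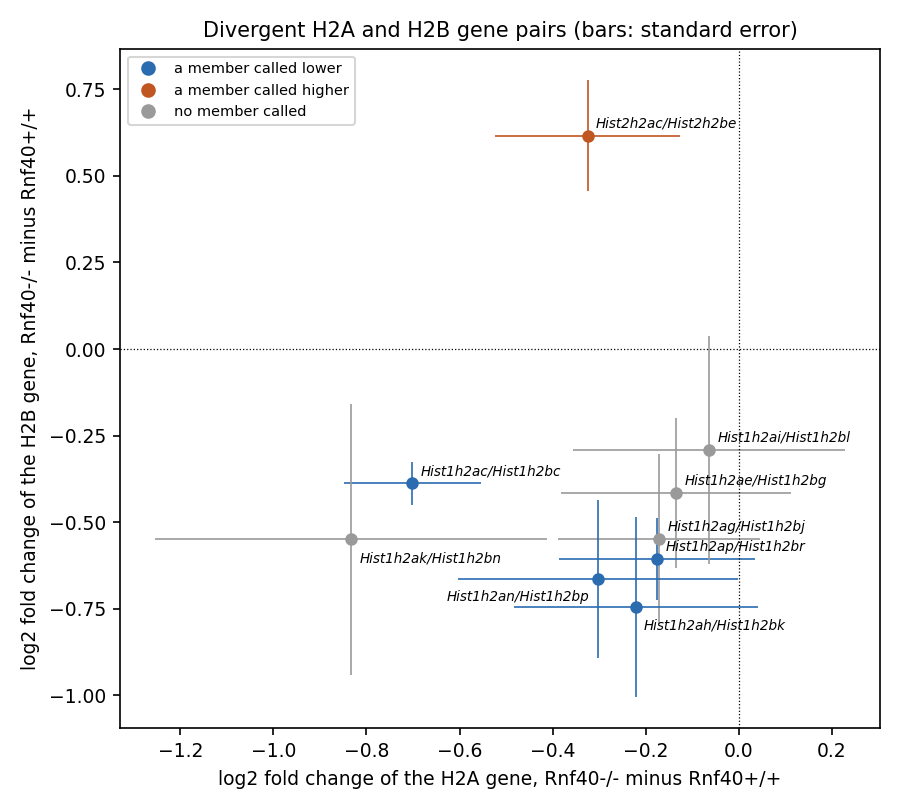
For the 9 tested head-to-head pairs, the log2 fold change of the H2A gene is plotted against that of the H2B gene, with standard errors. In 8 pairs both values are below 0, and the pair of Hist2h2ac and Hist2h2be lies alone above the horizontal line, with an H2B value of 0.62.

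The 4 tested H1 genes, which encode the linker histones, did not move together. Hist1h1c (ENSMUSG00000036181, chr13:23830676-23832235) had normalized counts of 2361, 2463 and 2527 in Rnf40+/+ and 2168, 2013 and 2248 in Rnf40-/- libraries. The groups did not overlap, and it fell by 0.19 on the log2 scale (standard error 0.07, limma adjusted p = 0.0304). Hist1h1e (ENSMUSG00000051627, chr13:23713624-23714371) had normalized counts of 121, 143 and 108 against 209, 221 and 198. It was higher in every Rnf40-/- library, with a log2 fold change of 0.76 (standard error 0.14, limma adjusted p = 0.000927). Hist1h1d was not called. Its normalized counts were 228, 225 and 226 against 199.9, 273 and 209, and the 95% interval of its log2 fold change ran from -0.30 to 0.28. Hist1h1b had between 3 and 14 reads per library and an interval from -1.04 to 1.63, so that no difference of ordinary size was detectable at this depth. The call of Hist1h1c was lost without replicate 2 or 3 of Rnf40+/+ or without replicate 1 or 2 of Rnf40-/- (limma adjusted p from 0.060 to 0.137), whereas that of Hist1h1e held throughout.

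Of 11 tested H3 genes, 1 was called. Hist1h3f (ENSMUSG00000059309, chr13:23635921-23636924) had normalized counts of 37.0, 38.8 and 40.7 in Rnf40+/+ and 56.1, 73.1 and 66.1 in Rnf40-/- libraries. The groups did not overlap, and the log2 fold change was 0.72 (standard error 0.21, limma adjusted p = 0.0144, and 0.0652 without replicate 2 of Rnf40-/-). No H3 gene was lower at an adjusted or unadjusted p under 0.05 with limma, edgeR or DESeq2. The H3 gene with the most reads was Hist2h3c1, which had normalized counts of 92.0, 116 and 136 against 127, 115 and 149. Its interval from -0.20 to 0.58 held 0, and 562 bases of its exon lie on Hist2h2aa1 on the same strand. Hist1h3d, with normalized counts from 50.2 to 60.7 against 51.1 to 67.0, overlapped as well (log2 fold change 0.11, standard error 0.21).

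Of 10 tested H4 genes, 1 was higher and 1 was lower. Hist1h4h (ENSMUSG00000060981, chr13:23622919-23623388) had normalized counts of 82.4, 59.1 and 116 in Rnf40+/+ and 157, 115 and 163 in Rnf40-/- libraries. The log2 fold change was 0.79 (standard error 0.24, limma adjusted p = 0.0157), although the highest Rnf40+/+ value just exceeded the lowest Rnf40-/- value. The call was lost without replicate 2 of Rnf40+/+ and without replicate 1 or 3 of Rnf40-/- (adjusted p from 0.061 to 0.072). Hist1h4i (ENSMUSG00000060639, chr13:22132685-22133221) had normalized counts of 80.0, 70.4 and 121 against 51.0, 62.6 and 57.6. It did not overlap and fell by 0.62 on the log2 scale (standard error 0.23, limma adjusted p = 0.0393). Without replicate 3 of Rnf40+/+ the log2 fold change was -0.39 (adjusted p = 0.166), and the call was also lost without any 1 of the Rnf40-/- libraries and without a low-count filter. Hist1h4n was not called, with 39.4, 44.9 and 47.1 against 71.4, 63.7 and 43.4 (log2 fold change 0.41, standard error 0.24, limma adjusted p = 0.185). In several H4 genes the first Rnf40-/- library stood highest. Hist1h4a had 41.8 normalized counts there, beside 21.9 and 16.1 in the other Rnf40-/- libraries and 15.5 to 16.8 in Rnf40+/+. Hist1h4c likewise had 37.7 there, beside 13.6 and 20.8, and 11.2 to 14.3 in Rnf40+/+.

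Since near-identical copies may trade reads, the normalized counts were also summed over every gene of a class. Such a sum does not settle reads shared with copies outside the class or outside these rows. Hist1h2ac, for example, shared stretches with 23 other genes, while H2A had 15 rows. The H2B sum was 4532, 4621 and 4527 in Rnf40+/+ and 3631, 3661 and 3725 in Rnf40-/- libraries, a ratio of the means of 0.805 with no overlap. Most of this fall lay in the reads assigned to Hist1h2bc, since without it the H2B sums of the other 17 genes ran from 1231 to 1378 against 1135 to 1236, a ratio of 0.909 with overlap. The H2A sum was 1574, 1486 and 1657 against 1346, 1378 and 1475, with a ratio of 0.890 and no overlap. The H1 sum was 2716, 2837 and 2877 against 2588, 2511 and 2666, a ratio of 0.921, and here Hist1h1c carried the direction. The other 5 H1 genes summed to 355, 374 and 351 against 420.1, 498 and 418, a ratio of 1.24.

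The H3 sum moved the other way. It was 374, 458 and 484 in Rnf40+/+ and 495, 488 and 541 in Rnf40-/- libraries, a ratio of 1.16 without overlap, though the gap between the groups was narrow. The H4 sum was 327, 267 and 398 against 475, 359 and 391, a ratio of 1.23 with overlap. On the log2 scale the H3 ratio was 0.21 and went to 0.11 without replicate 1 of Rnf40+/+, and the H4 ratio was 0.30 and went to 0.17 without replicate 2 of Rnf40+/+, to 0.46 without replicate 3 of Rnf40+/+ and to 0.18 without replicate 1 of Rnf40-/-. Over all 62 genes the sum fell from 9711 ± 213 to 8577 ± 204 (SD, n = 3), a ratio of 0.883. The 3 genes with the most reads (Hist1h2bc, Hist1h1c and Hist3h2a) made up 65.4% of that sum in Rnf40+/+ libraries, and the other 59 genes summed to 3362 ± 252 and 3297 ± 88.8. All of them together took between 0.0444% and 0.0473% of the reads of a library. In bulk RNA, fewer cells of a kind and less RNA per cell cannot be told apart.

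**Figure D4:**
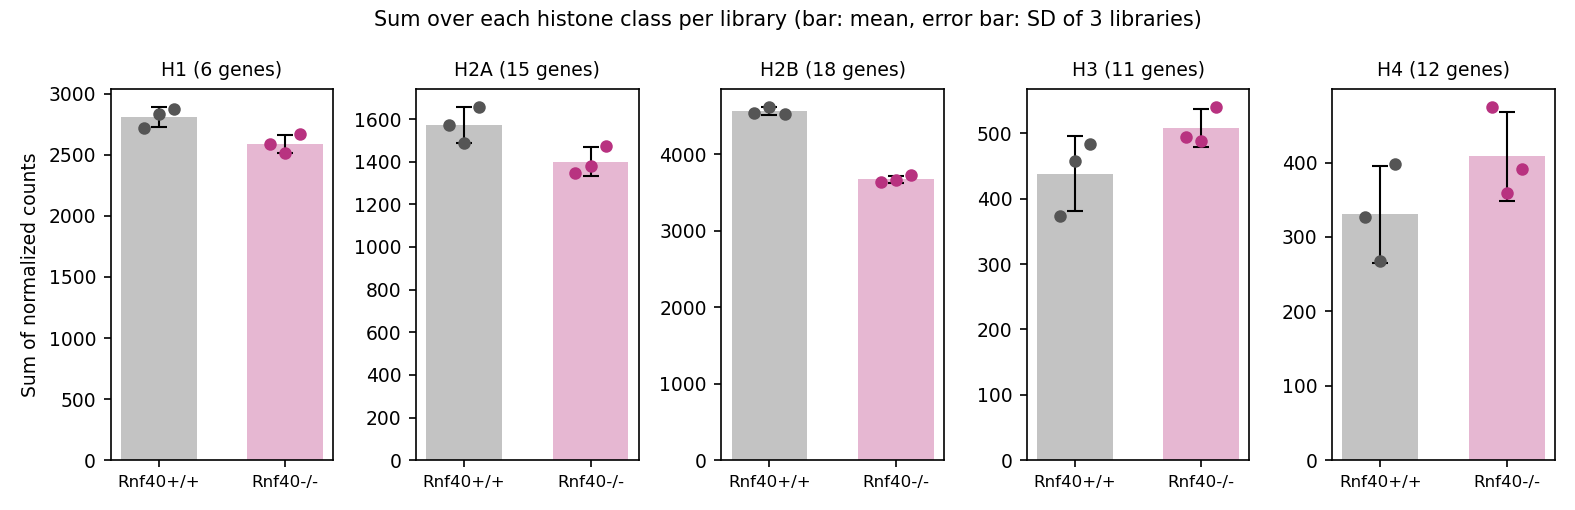
The sum of normalized counts over all genes of a class is shown per library as points, with the mean as a bar and the SD over 3 libraries as an error bar, on a linear axis from 0 in each panel. The H2B points of the Rnf40-/- libraries (3631 to 3725) lie under all Rnf40+/+ points (4527 to 4621), and the H4 points overlap.

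The genes also differed in how far their transcript runs in the GENCODE vM1 annotation. The authors mapped reads to a UCSC transcriptome of mm9, in which these ends may differ. In 21 of 62 genes the annotation extended more than 100 bases beyond the stem-loop. Of these, 17 were tested, with 6 lower and 2 higher, again near the shares of all genes tested (24.1% and 23.3%). In 39 genes the annotation ended before the stem-loop or at most 100 bases behind it, where the pseudogene Hist3h2bb-ps was counted without a measured distance. A total of 35 of these were tested, with 2 lower and 2 higher, below those shares. The genes with the longer annotation held 82.1% of the summed normalized counts in Rnf40+/+ libraries, and their sum was 7839, 8046 and 8033 against 6662, 6715 and 7013, a ratio of 0.853 with no overlap. The 3 genes with the most reads (Hist1h2bc, Hist1h1c and Hist3h2a) all belong to this group. They alone summed to 6349 ± 105 against 5280 ± 173 (SD, n = 3), so the fall of the group rested largely on them. The sum of the genes with the short annotation was 1532, 1508 and 1778 against 1695, 1491 and 1609, a ratio of 0.995. The 2 genes without a stem-loop match summed to 152, 114 and 133 against 177, 191 and 176, a ratio of 1.37 with no overlap. The longer genes had more reads, with a median Rnf40+/+ mean of 107 normalized counts against 34.2, and depth and annotation cannot be told apart in these counts. Reads on either side of the stem-loop were not counted separately in the deposited table, so the 2 forms of transcript were not measured here.

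Copies of the same gene set a further limit. A total of 56 of the 62 genes shared at least 1 stretch of 50 bases with another gene, the median gene was unique over 56.9% of its length, and 21 genes were unique over less than 50%. Of the 21 tested genes under that level 3 were called, all of them lower, and of the 33 above it 5 were lower and 5 higher, beside 24.1% and 23.3% of all genes tested. The difference between these groups was not tested. Another 8 of the 62 genes had too few reads to be tested. Hist1h1t, the testis H1, had no read in any library, and 3 reads, taken as the limit of detection, correspond to 2.40 to 3.58 normalized counts. Hist1h1a, Hist1h2aa, Hist2h2bb, Hist2h4, Hist4h4 and the pseudogene Hist3h2bb-ps had at most 7 reads in any library. Hist3h2ba, an H2B gene of chromosome 11, had 22 reads in the first Rnf40+/+ library but only 2 to 4 in the others, so its level rested on 1 library.

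Of 19 factors that transcribe histone genes or process, bind and degrade their mRNAs, 6 were lower and 6 were higher, not far from the 24.1% and 23.3% of all genes tested, with a median log2 fold change of -0.07. Slbp, which binds the stem-loop, fell most, from 680.0 ± 4.36 to 390.4 ± 62.9 (SD, n = 3) normalized counts (log2 fold change -0.81, standard error 0.11, limma adjusted p = 8.72e-05). Npat, the coactivator of histone genes, fell from 549 ± 15.3 to 408 ± 33.95 (log2 fold change -0.43, limma adjusted p = 0.00214). Lsm11 of the U7 snRNP, Mif4gd, Casp8ap2 and the exonuclease gene Eri1 fell too. Ncbp2 of the cap-binding complex rose most, from 1841 ± 56.2 to 2789 ± 70.3 (log2 fold change 0.60, limma adjusted p = 9.68e-06). Ncbp1, Srrt, Sympk, the decay factor Upf1 and Cpsf3, which encodes the nuclease that makes the 3' cut, were also higher. Pou2f1, Hinfp, Lsm10, Zfp473, Cpsf2, Cstf2 and Cdk9 were not called.

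Most genes of histone supply and S phase were lower in Rnf40-/- MEFs, where 24.1% of all genes tested were lower and 23.3% higher. Of 9 chaperones and modifiers of new histones, 7 were lower and none was higher, with a median log2 fold change of -0.60. Asf1b, a chaperone of H3 and H4, fell most, from 184 ± 29.3 to 44.4 ± 1.55 normalized counts (log2 fold change -2.01, limma adjusted p = 2.57e-06). Of 17 genes of S phase, 15 were lower and none was higher, with a median of -1.15. No gene of these lists was higher at an unadjusted p under 0.05 with limma, edgeR or DESeq2. Tk1, which encodes thymidine kinase, fell from 304 ± 28.4 to 49.3 ± 1.52 (log2 fold change -2.60, limma adjusted p = 9.28e-08), and only Tyms and Ccne2 were not called. The share of cells in S phase was not measured here, and its part in the results on histone genes was not tested.

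Among 8 histone genes that lie outside the clusters, listed here as replacement histones, 6 were lower and H2afy alone was higher, against the same 24.1% and 23.3% of all genes tested. H1f0, which encodes the H1 of resting cells, fell from 2018 ± 109 to 965 ± 78.1 normalized counts (log2 fold change -1.07, limma adjusted p = 6.88e-07), and H2afx fell from 918 ± 118 to 528 ± 37.6 (log2 fold change -0.79, limma adjusted p = 6.31e-05). H2afv, an H2A.Z gene, had the lowest log2 fold change of the list (-1.26).

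**Figure D5:**
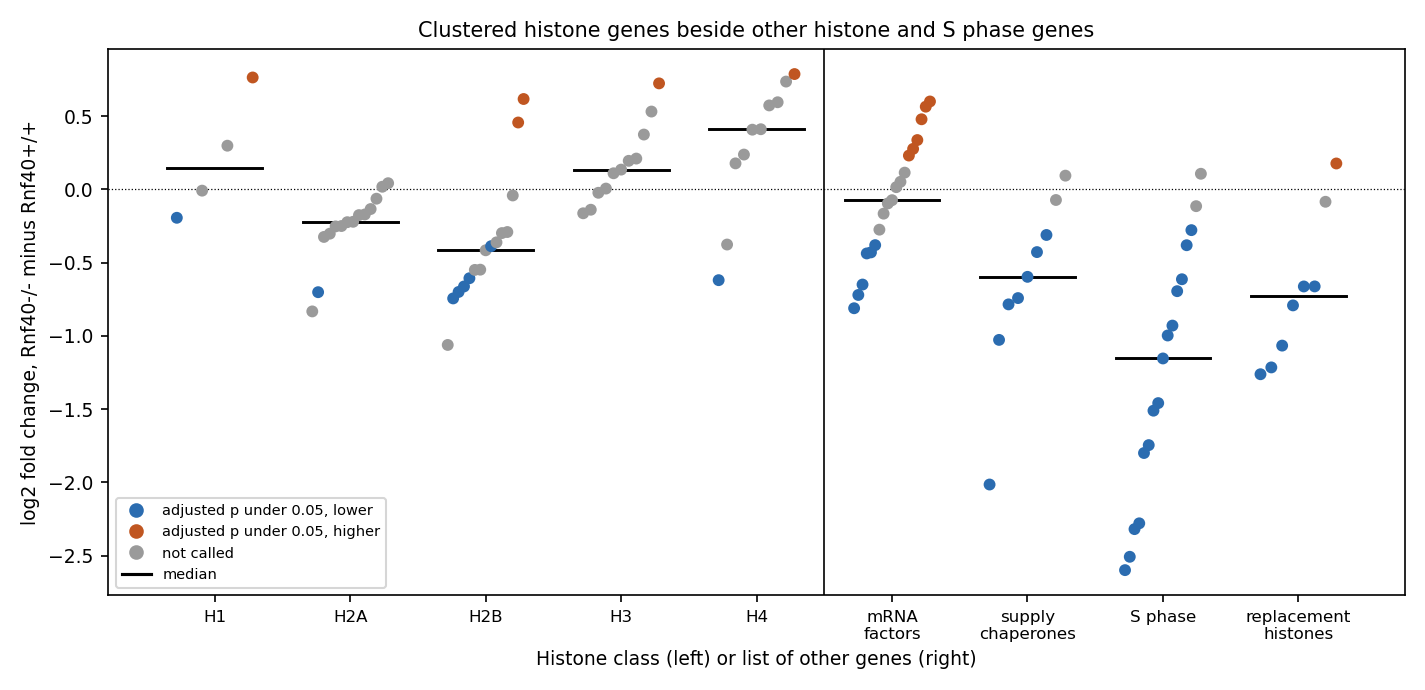
Log2 fold changes of the tested clustered histone genes are plotted by class on the left, and those of histone mRNA factors, histone supply chaperones, S phase genes and replacement histones on the right, with the median as a black line. The medians run from -0.42 for H2B to 0.41 for H4 on the left, and those of supply chaperones (-0.60), S phase genes (-1.15) and replacement histones (-0.73) lie below all class medians.

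A total of 6 of the 13 called genes stayed under an adjusted p of 0.05 in all 15 alternatives, namely Hist1h2bc, Hist1h2br, Hist1h2be and Hist2h2be of H2B, Hist1h2ac and Hist1h1e. The criteria of the study are not among these 15, and none of the 13 called genes met them. The other 7 lost their call in at least 1 alternative, 5 of them (Hist1h1c, Hist1h2bh, Hist1h2bk, Hist1h2bp and Hist1h4i) without replicate 3 of Rnf40+/+, and Hist1h2bk lost it whichever of the 6 libraries was left out. The number of lower genes was 3 without replicate 3 of Rnf40+/+, 3 without replicate 2, 4 without replicate 3 and 5 without replicate 1 of Rnf40-/-.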

How the data were processed

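RNA-seq of 3 Rnf40+/+ and 3 Rnf40-/- MEF libraries was analysed. The authors mapped reads to the mouse transcriptome of mm9 and normalized counts with DESeq (Bowtie2 2.1.0 and DESeq 1.14.0 are named in the submitters' processing notes, and the counting tool is not given in the sources used here). The deposited values (signal, not counts) are the reads on each gene over the size factor of the library. Each value, 100% in every library, was a whole number of steps (within 0.01 reads), so the reads could be recovered.

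Genes were filtered with filterByExpr of edgeR (4.0.16) by genotype and tested with limma (3.58.1; lmFit, then eBayes with trend set) after log2 of the normalized count plus 1, which understates the change of genes with few reads. Genotype was the only term, and p values were adjusted by Benjamini-Hochberg over 16378 genes. No other factor, such as the cell cycle, could be modelled. Genome and annotation were NCBIM37 (mm9) and GENCODE vM1, in which all 62 symbols were found. The authors used a UCSC transcriptome of mm9, so transcript ends, lengths, overlaps and uniqueness given here may differ from those behind the counts. Stem-loops were searched within 150 bases of the stop codon, and for the pseudogene Hist3h2bb-ps within 1000 bases of its annotated 5' end. Uniqueness was read from exact stretches of 50 bases over annotated protein-coding and clustered histone transcripts.

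The members and lists were chosen with earlier results of these data known. Named genes were Rnf40, all tested H1 genes, the 3 core genes per class with the most reads, the called core genes with the largest rise and fall, Hist3h and Hist4h genes, and the extremes of the other lists with Slbp, Npat, H1f0 and H2afx. Genes outside this rule were named after their values were seen. Alternatives were TMM or DESeq2 (1.42.0) scaling, the edgeR and DESeq2 tests on the recovered reads, other filters and pseudocounts (0.1 and 10), a replicate block, leaving out single libraries and the criteria of the study. Scripts were tested on simulated data and run in R 4.3.3 and Python 3.11.15. ChIP-seq was not analysed here.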

Additional observations from a re-analysis of the deposited data

How the results depend on the processing

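The number of lower histone genes was 8 with limma and stayed at 8 under other scaling, the edgeR test, other pseudocounts and a filter of 10 reads, but was 5 with the Wald test of DESeq2, 4 without a low-count filter and 1 by the thresholds of the study applied to limma. It ranged from 3 to 7 when single libraries were left out, and was 3 without replicate 3 of Rnf40+/+, the library that stood apart from its group. The number of higher genes was 5, with a range of 4 to 5 without single libraries, and 0 by the criteria of the study. The median of the 4 tested H1 genes ranged from 0.017 to 0.33 without single libraries, and was -0.0089 without a low-count filter or with at least 10 reads in every library. Hist1h1d changed sign with edgeR (0.0090) and DESeq2 (0.0095), and ran from -0.15 to 0.077 without single libraries (positive without replicate 1 or 3 of Rnf40-/-). Hist3h2a ran from -0.0061 to 0.064 and was negative without replicate 3 of Rnf40+/+ or replicate 2 or 3 of Rnf40-/-. None of these values was called. The cause was not tested. No class median other than that of H1, and no class sum, changed sign under the alternatives run, but without single libraries the medians ranged from -0.29 to -0.11 for H2A, -0.55 to -0.39 for H2B, 0.061 to 0.20 for H3 and 0.23 to 0.50 for H4, and the log2 ratio of the sums from 0.11 to 0.29 for H3 and 0.17 to 0.46 for H4.

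Libraries with the same replicate number deviated together no more than others (r = 0.012, 0.017 and 0.021), so the numbers were not taken to pair the samples. With a replicate block 8 genes were lower, of which 7 were among the main calls, and 5 were higher. Most histone genes had under 100 normalized counts.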
